A study of Rattus norvegicus with 7 samples.

Results

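Nitric oxide is made from arginine, and 9 genes of its synthesis and of arginine turnover were followed here in rat lung: Nos3, Nos2, Ass1, Asl, Arg1, Arg2, Ddah1, Ddah2 and Gch1. Every probe set whose single gene symbol in the platform annotation was one of these 9 was taken, which gave 11 of the 31042 non-control probe sets on the array. Lung RNA was measured on 7 Affymetrix arrays from Dahl salt-sensitive rats, an inbred strain prone to hypertension on a high-salt diet, weighing 250 to 350 g. Every rat behind these 7 arrays breathed about 9.5% oxygen and was given SU-5416, a VEGF receptor blocker, a combination used to bring on severe pulmonary hypertension, and the study's design places the RNA harvest at 3.5 weeks. The HSU group (n = 3) had hypoxia and SU-5416 alone. The HSU_Sor group (n = 4) was also treated with sorafenib, which blocks RAF kinases together with several growth factor receptors. Normoxic rats and rats in hypoxia alone were not analysed here, so both groups carry the hypoxia and the VEGF receptor inhibitor. The labels give no age or sex and do not say that each array is from its own animal, so p-values measure the spread between these 7 arrays.

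In the lung, nitric oxide relaxes the smooth muscle of pulmonary arteries. The endothelial synthase encoded by Nos3 makes it continuously in vessel walls, and the inducible synthase encoded by Nos2 makes it in inflamed tissue. The synthases need arginine and the cofactor tetrahydrobiopterin, whose synthesis starts with the enzyme encoded by Gch1. Ass1 and Asl encode the pair of enzymes that rebuild arginine from citrulline, the by-product of the synthases. Arg1 and Arg2 encode arginases, which split arginine into ornithine and urea and so compete with the synthases for substrate, while Ddah1 and Ddah2 encode enzymes that remove asymmetric dimethylarginine, an inhibitor of the synthases made inside the body.

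Ass1 was the only one of the 7 member probe sets above the filter on mean level whose groups did not overlap. All 4 HSU_Sor arrays lay above all 3 HSU arrays, with a 1.52-fold higher mean in HSU_Sor. Over all probe sets tested, 2.01% did not overlap in this direction and 5.26% in either. Gch1 and Nos3 had lower means in HSU_Sor, by 0.73 and 0.52 on the log2 scale, with overlapping groups. Asl, Arg1, Ddah1 and Ddah2 differed by 0.24 or less in either direction, and Nos2 and Arg2 lay at the floor of the deposited values on every array. No member passed the adjusted threshold: with limma, 0 of the 7 member probe sets tested had a Benjamini-Hochberg adjusted p below 0.05, where 0% of all 15521 probe sets tested did. At an unadjusted p below 0.05 there was 1 of the 7 members, Ass1, against 6% of all probe sets tested (2.33% higher and 3.67% lower). Ass1 was also the 1 member with an unadjusted p below 0.01 whose fold reached 1.4, against 0.844% of all (0.232% higher and 0.612% lower).

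The deposited values are log2 expression, normalized across arrays, and ran from 0.29 to 16.14. Array medians spanned 3.59 to 3.68, and over the 15521 tested probe sets any pair of arrays correlated at 0.984 to 0.992. With 7 arrays, the precision of each difference is limited by their number. HSU 1b and 2b stood apart from the other 5 arrays at some probe sets of MHC genes. At 6 of 25 RT1 probe sets these arrays lay at least 1 log2 unit to one side of all others, which held for 21 of all probe sets tested (0.135%) and for 0 of the members. A probe set of RT1-Bb, a class II gene, read 12.57 on both of them, while the remaining 5 read 3.55 to 3.72. A brighter probe set of the same gene read 13.17 and 13.08 on HSU 1b and 2b and 13.43 to 14.06 on the other 5. The gene was thus read well above the filter on all 7 arrays. The titles of the HSU arrays carry the letter b and those of HSU_Sor do not, so that anything the letter marks and the treatment cannot be told apart. In these whole-lung samples, fewer cells of a type and less RNA per cell cannot be told apart either.

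Markers of the cell types that a lung sample can hold were summed on the linear scale for each array and are given as log2 of that sum. Of 10 endothelial markers 9 had a probe set, and their sum lay between 15.84 and 15.99 in HSU and between 15.68 and 16.06 in HSU_Sor. Of 11 macrophage markers 9 had one (15.37 to 15.64 against 15.29 to 15.42), with Cd163 at the floor. The sums of the 7 smooth muscle markers (15.58 to 15.75 against 14.67 to 15.24) and of the 5 mast cell markers (7.50 to 8.92 against 6.57 to 7.27) did not overlap between the groups, and Tpsab1 of the latter was at the floor. Neutrophil markers (4 of 6) lay between 11.42 and 12.15 in HSU and 11.25 and 13.87 in HSU_Sor, with Cxcr2 at the floor. Airway epithelial markers (5 of 6) lay at 16.09 to 16.37 against 15.93 to 16.09. The brightest of them, Scgb1a1, lay at 15.82 to 15.97 on all 7 arrays, with a log2 difference of 0.005. Bpifa1 (-3.68), Scgb3a1 (-0.99) and Cyp2f4 (-0.53) had lower means in HSU_Sor and Foxj1 (0.03) a higher one, all with overlapping groups. Alveolar type II markers (6 of 6) lay at 17.22 to 17.37 against 17.17 to 17.31. Heart muscle markers (5 of 6) lay at 8.79 to 11.19 against 8.50 to 9.56, and red cell markers (4 of 5) at 14.25 to 14.56 against 11.60 to 14.89. The heart muscle sum was 11.19 and 10.93 on HSU 1b and 2b, above all other arrays. Within HSU_Sor the red cell sum was 14.89 and 14.30 on arrays 1 and 2, and 12.12 and 11.60 on arrays 3 and 4. Liver markers (6 of 6) lay at 9.34 to 9.87 against 9.47 to 12.55, with Apoa1 at the floor and albumin (Alb) at 12.38 on HSU_Sor 1 against 6.76 to 8.14 elsewhere. All markers with a probe set of endothelium, smooth muscle, airway and type II cells passed the filter on mean level. The part of these differences in the values of the members was not tested.

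**Figure D1:**
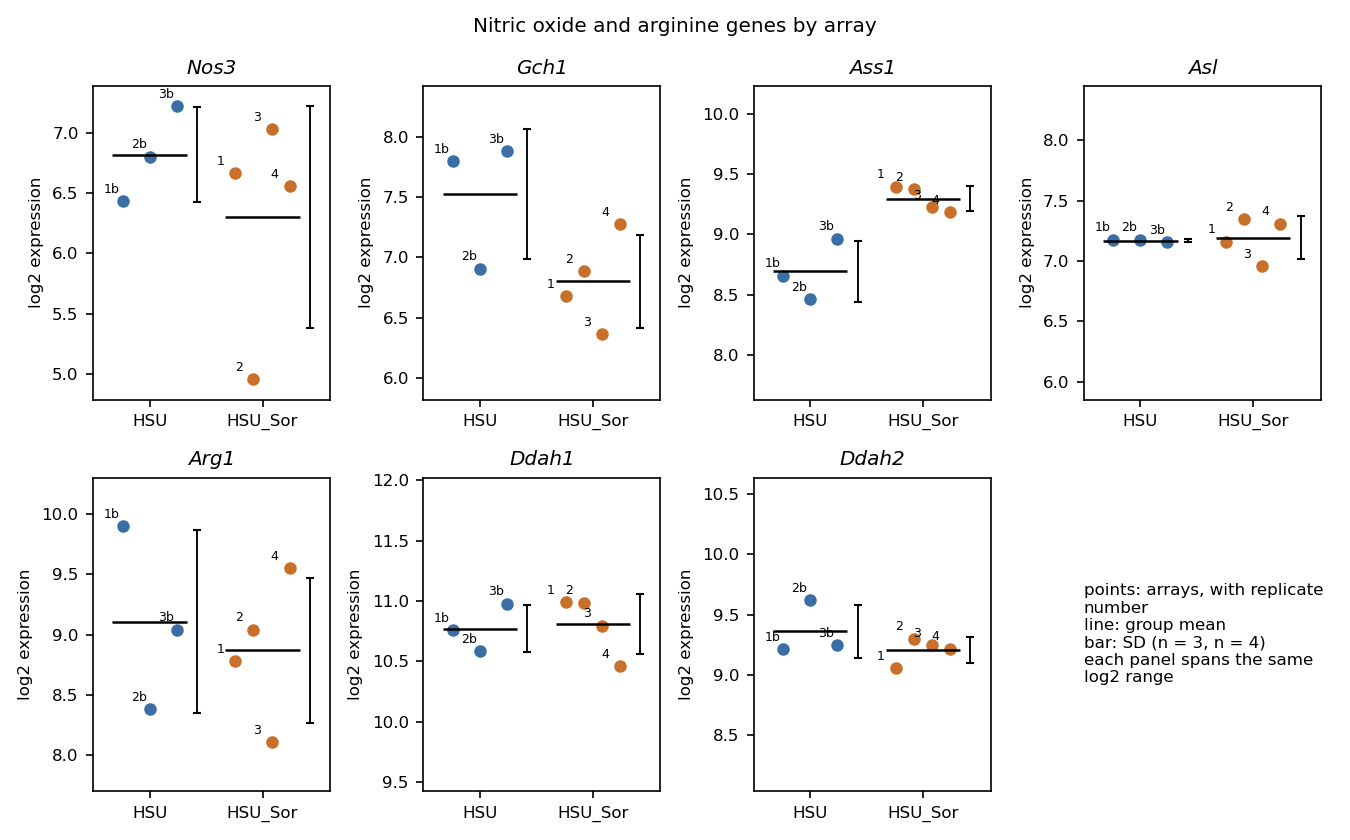
Log2 expression of the 7 member probe sets above the filter on each array, with the group mean as a line and the SD as a bar beside it (3 HSU arrays, 4 HSU_Sor arrays); every panel spans the same log2 range. The groups are apart in Ass1 alone, the HSU_Sor 2 array lies low in Nos3 at 4.96, and Arg1 spreads widely in both groups.

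Nos3, the endothelial synthase, was measured by 1 probe set. Its log2 level was 6.43, 6.80 and 7.22 on HSU 1b, 2b and 3b. On HSU_Sor 1 to 4 it was 6.67, 4.96, 7.03 and 6.56. HSU_Sor 1, 3 and 4 lay within the range of HSU, and HSU_Sor 2 lay well below all other arrays. The means were 6.82 ± 0.39 for HSU (SD, n = 3) and 6.30 ± 0.92 for HSU_Sor (SD, n = 4), a log2 difference of -0.52 ± 0.51 (SE, limma adjusted p = 0.893) with a 95% interval from -1.74 to 0.71. The interval holds both a clearly lower and a higher level under sorafenib. Without HSU_Sor replicate 2 the difference was -0.07 ± 0.23 (SE), so that array set most of its size. Within groups Nos3 varied more than 97.7% of all tested probe sets, with a pooled SD of 0.75.

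Single endothelial markers went different ways on HSU_Sor 2, the array with the low Nos3 level. The sum of the endothelial list was 16.01 there, within the range of the other HSU_Sor arrays. The VEGF receptor Kdr was at 14.20 on that array, its highest level of the 7, and the adhesion molecule Pecam1 was at 12.03 against 11.86 to 12.55 on the other 6. Tie1, a receptor of endothelial cells, was at 11.14, its lowest level of the 7 (11.17 to 11.86 on the other 6). Egfl7 was at 11.70, against 11.69 on HSU_Sor 1, its lowest level, and up to 12.20 on HSU_Sor 3. Cldn5, Tek, Emcn, Esam and Vwf lay within their range on the other arrays. The part of these markers in the Nos3 value was not tested. The 3 genes whose levels followed Nos3 most closely over the 7 arrays, among 9298 other genes with 1 probe set each, were the RNA-binding protein gene Rbm10 (Pearson r = 0.987), Gtf3c4 (r = 0.982) and the ciliary neurotrophic factor gene Cntf (r = 0.975). Each of these was lowest on HSU_Sor 2, by smaller steps than Nos3: Gtf3c4 was at 8.15 there against 8.85 to 9.20 on the other arrays. With 7 points that share their arrays and 1 low array among them, these correlations describe that array as much as the others.

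Nos2, the inducible synthase, was listed at 1.12 to 1.15 on all 7 arrays by its 1 probe set with a single symbol. This is the floor of the deposited values, taken here as a mean that does not exceed the filter, the median probe set mean of 3.64, with a range of less than 0.1 over the 7 arrays, as was found for 73.3% of the probe sets that did not pass the filter. A further probe set carries both Nos2 and another symbol and was not used. The neuronal synthase gene Nos1 was at the floor as well, between 2.38 and 2.42. Among probe sets with a single symbol, Nos3 was thus the only synthase gene above the filter in these lungs. No difference between the groups could be read from those of Nos1 and Nos2.

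Gch1, which encodes GTP cyclohydrolase and sets the supply of tetrahydrobiopterin, was measured by 2 probe sets. One of them was at the floor, between 1.31 and 1.35. On the other, the log2 level was 7.80, 6.90 and 7.88 on HSU 1b, 2b and 3b. The 4 HSU_Sor arrays, in order, gave 6.68, 6.89, 6.36 and 7.28. HSU 1b and 3b lay above every HSU_Sor array, while HSU 2b lay below HSU_Sor 4 and next to HSU_Sor 2. The means were 7.53 ± 0.54 (SD, n = 3) and 6.80 ± 0.38 (SD, n = 4), a log2 difference of -0.73 ± 0.31 (SE, limma adjusted p = 0.834) with a 95% interval from -1.46 to 0.01. This was the largest difference among the members and a 1.65-fold lower mean in HSU_Sor. Its unadjusted p was 0.0529, and the two-sided exact permutation test over all 35 splits of the arrays gave p = 0.114. Without each array in turn the difference ran from -1.04, without HSU replicate 2b, to -0.55, without HSU replicate 3b, and without HSU arrays 1b and 2b together it was -1.08.

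Ass1 encodes argininosuccinate synthase, which joins citrulline and aspartate in the step that limits the recycling of arginine. Its log2 level was 8.66, 8.46 and 8.96 on HSU 1b, 2b and 3b. It was higher on HSU_Sor 1 to 4, at 9.39, 9.37, 9.23 and 9.18. The lowest HSU_Sor array lay above the highest HSU array, and the HSU_Sor arrays lay within 0.21 of each other. Groups did not overlap in this direction for 2.01% of all probe sets tested, in the opposite direction for 3.25%, and in either for 5.26%. The means were 8.69 ± 0.25 (SD, n = 3) and 9.29 ± 0.11 (SD, n = 4), a log2 difference of 0.60 ± 0.13 (SE, limma adjusted p = 0.570) with a 95% interval from 0.30 to 0.90. The unadjusted p was 0.00258, and 68 of the 15521 probe sets had a p as small or smaller. Over all 35 splits the two-sided exact permutation test gave 0.0571, the lowest p it can reach with groups of this size.

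The size of the Ass1 difference turned on which HSU arrays stood for that group. Without HSU replicate 2b it was 0.48 and without HSU replicate 3b it was 0.74. Without HSU replicate 1b it was 0.58 with an unadjusted limma p of 0.0115, no longer below 0.01. Against HSU 3b alone, leaving out the HSU arrays 1b and 2b with the unusual MHC signal, it was 0.33 ± 0.11 (SE), with the spread taken from HSU_Sor. HSU 1b and 2b also had the highest heart muscle sums. Without HSU_Sor replicate 1, the array with the high albumin signal, the Ass1 difference was 0.57. Transthyretin (Ttr), another liver marker, was below the filter and also highest on that array, at 3.22 against 2.71 to 2.79 on the other 6. Cps1, a liver gene of the urea cycle, lay between 2.65 and 2.76 on all 7. Serpina1, a liver marker above the filter, was not highest on HSU_Sor 1, at 9.31 there and 9.96 on HSU_Sor 3. Fgb, below the filter, was at 2.78 on HSU_Sor 1, within its range of 2.68 to 2.80. The Ass1 difference was above 0 in all 18 alternatives in which it was computed, and its adjusted p in them ran from 0.229 to 0.910. The genes that followed Ass1 most closely were Sema4f (r = 0.971 over 7 arrays), the procollagen processing enhancer gene PCOLCE2 (r = 0.958) and Pacs1 (r = 0.958), a sorting protein. As for Ass1, the marker sums of smooth muscle and mast cells did not overlap between the groups, both lower in HSU_Sor. Above the filter, Acta2 (log2 difference -0.04) and Myh11 (-0.27) of smooth muscle and Kit (-0.16) of mast cells did overlap. Actg2 (-1.45), Des (-1.10), Cnn1 (-0.84), Tagln (-0.72) and Smtn (-0.51) of smooth muscle did not. Neither did Mcpt10 (-2.42) and Cpa3 (-0.74) of mast cells. Of all probe sets tested, 3.25% did not overlap in this lower direction. Von Willebrand factor (Vwf), made by endothelial cells, did not overlap in the same direction as Ass1. It was at 11.72 to 11.87 in HSU and 12.00 to 12.29 in HSU_Sor (0.41 ± 0.08, SE, limma adjusted p = 0.567). The endothelial sum and all other endothelial markers overlapped between the groups. Cldn5, Tek, Emcn, Esam, Pecam1 and Egfl7 had lower means in HSU_Sor (-0.25 to -0.02), and Kdr (0.12) and Tie1 (0.10) higher ones. The part of these markers in the Ass1 difference was not tested. Sema4f was at 5.28, 4.90 and 6.49 in HSU and between 6.46 and 6.93 in HSU_Sor.

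Asl encodes argininosuccinate lyase, which releases arginine in the step after Ass1. Its log2 level was 7.18, 7.18 and 7.15 on HSU 1b, 2b and 3b. On HSU_Sor 1 to 4 it was 7.16, 7.35, 6.95 and 7.31. The HSU arrays lay within 0.02 of each other and inside the range of HSU_Sor. The log2 difference was 0.02 ± 0.10 (SE, limma adjusted p = 0.977) with a 95% interval from -0.22 to 0.26, which does not reach the 0.60 found for Ass1. A test of the difference between these genes was not made. The second probe set annotated as Asl was at the floor, between 2.38 and 2.43, and the accession listed for it belongs to Hnrnpab in the RefSeq gene table, so it is an uncertain measure of Asl.

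The start regions of Gch1 and Ass1 are shown because these genes had the largest differences among the members, one in each direction. The sequences are the 250 bases before the RefSeq start site in build GRCr8, read along the gene's strand from 5′ to 3′, and 5 of the 9 members had an entry in the table. Capitals mark matches on either strand to the GC box GGGCGG, the CCAAT box CCAAT, the half-site TGACG of the cAMP response element, the TATA box TATAAA or the core ACGTG of hypoxia response elements. The Gch1 window is chr15:22917413-22917662 on the minus strand, and the Ass1 window is chr3:35149480-35149729 on the plus strand.
Gch1: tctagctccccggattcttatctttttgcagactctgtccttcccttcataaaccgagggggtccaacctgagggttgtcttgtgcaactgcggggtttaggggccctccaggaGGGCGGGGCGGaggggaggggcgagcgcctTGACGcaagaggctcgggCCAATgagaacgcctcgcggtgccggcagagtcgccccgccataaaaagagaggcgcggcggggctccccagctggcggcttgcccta
Ass1: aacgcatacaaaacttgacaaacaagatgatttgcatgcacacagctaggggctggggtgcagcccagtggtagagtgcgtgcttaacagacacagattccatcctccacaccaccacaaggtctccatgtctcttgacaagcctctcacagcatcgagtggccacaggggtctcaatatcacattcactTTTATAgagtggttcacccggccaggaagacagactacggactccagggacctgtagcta

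The Gch1 window held 2 GC boxes that share a base, a TGACG half-site starting at -106 and a CCAAT box starting at -88, counted from the start site. Among 33469 windows of the same length, 30.5% held the GC box, 18.2% the half-site and 34.0% the CCAAT box. The Ass1 window held a TATA box on the opposite strand at -60 to -55, a motif found in 12.9% of windows, and none of the other 4 sets of letters. The start site listed for Ass1 lies 4965 bases inside the gene as the RefSeq gene table bounds it, so other starts of this gene are outside the window. Its GC content was 51.2%, at the median of all windows (51.2%), and that of Gch1 was 64.4%. The core ACGTG, present in 16.6% of windows, was in neither. These are matches of letters only, and nothing in these arrays measures binding there.

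Arg1, the cytosolic arginase of liver and of some macrophages, was at 9.90, 8.39 and 9.04 in HSU (1b, 2b, 3b). Under sorafenib, arrays 1 to 4 gave 8.78, 9.04, 8.11 and 9.55. Both groups spread over about the same width, 1.51 in HSU and 1.44 in HSU_Sor, and overlapped almost fully. The log2 difference was -0.24 ± 0.45 (SE, limma adjusted p = 0.930) with a 95% interval from -1.32 to 0.85, and leaving out HSU replicate 1b made it 0.16, leaving out HSU_Sor replicate 3 made it 0.02. Arg1 varied within groups more than 97.0% of the tested probe sets. The 3 genes whose levels followed it most closely were Lgmn, a lysosomal protease gene (r = 0.978 over 7 arrays), the ribosomal protein gene Rpl24 (r = 0.974) and the casein kinase subunit gene Csnk2b (r = 0.963). Lgmn was highest on HSU 1b, at 12.72, where Arg1 was highest, and lowest on HSU_Sor 3, at 12.30, where Arg1 was lowest.

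The complement genes C1qa, C1qb and C1qc, markers of macrophages, had lower means in HSU_Sor and groups that did not overlap. Groups did not overlap in this direction for 3.25% of all probe sets tested. C1qa was at 11.79, 11.26 and 12.23 in HSU and between 9.38 and 10.77 in HSU_Sor, a log2 difference of -1.70 ± 0.43 (SE, limma adjusted p = 0.635), with the lowest level on HSU_Sor 4, where Arg1 was second highest. C1qb and C1qc were lowest on HSU_Sor 3, at 5.69 and 9.40, where Arg1 was lowest as well. On HSU_Sor 4 they were second lowest, at 7.31 and 9.42. The colony-stimulating factor receptor Csf1r was between 11.26 and 11.75 on all 7 arrays and the mannose receptor Mrc1 between 11.78 and 12.90. All macrophage markers above the filter other than the C1q genes overlapped between the groups. Their log2 differences were 0.39 for Cd68, 0.17 for Csf1r, 0.01 for Mrc1, -0.06 for Lyz2 and -0.20 for Adgre1. Among the members themselves, Arg1 correlated most with Gch1 (r = 0.764 over 7 arrays), and the lowest value was that of Nos3 with Asl (r = -0.695), among 21 pairs that share the same arrays. Arg2, the mitochondrial arginase, was at the floor on all 7 arrays, between 2.02 and 2.06.

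Ddah1 and Ddah2 encode the enzymes that break down asymmetric dimethylarginine. Ddah1 was at 10.76, 10.58 and 10.98 in HSU (1b, 2b, 3b). Its HSU_Sor levels (1 to 4) were 10.99, 10.99, 10.80 and 10.46. The groups overlapped, and the log2 difference was 0.04 ± 0.16 (SE, limma adjusted p = 0.977) with a 95% interval from -0.35 to 0.42. Its sign turned without HSU replicate 2b (-0.06), without HSU_Sor replicate 1 (-0.02) or replicate 2 (-0.02), and without HSU arrays 1b and 2b (-0.17).

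Ddah2 read 9.21, 9.62 and 9.25 in HSU (1b, 2b, 3b). On HSU_Sor 1 to 4 it was 9.06, 9.30, 9.25 and 9.22. All arrays but HSU 2b lay within the range of HSU_Sor. The log2 difference was -0.15 ± 0.12 (SE, limma adjusted p = 0.874) with a 95% interval from -0.43 to 0.12, and -0.03 without HSU replicate 2b. Ddah2 lies in the MHC region, where HSU 1b and 2b stood apart at some RT1 genes. Of the 10 genes on each side of it in the RefSeq gene table of GRCr8, 5 had a tested probe set with a single symbol (Csnk2b, Abhd16a, Clic1, Vars1 and Lsm2). At none of the 5 did HSU 1b and 2b stand apart from the other arrays, and their mean was between 0.22 lower and 0.07 higher than that of the other 5 arrays. Without HSU arrays 1b and 2b the Ddah2 difference was -0.04.

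**Figure D2:**
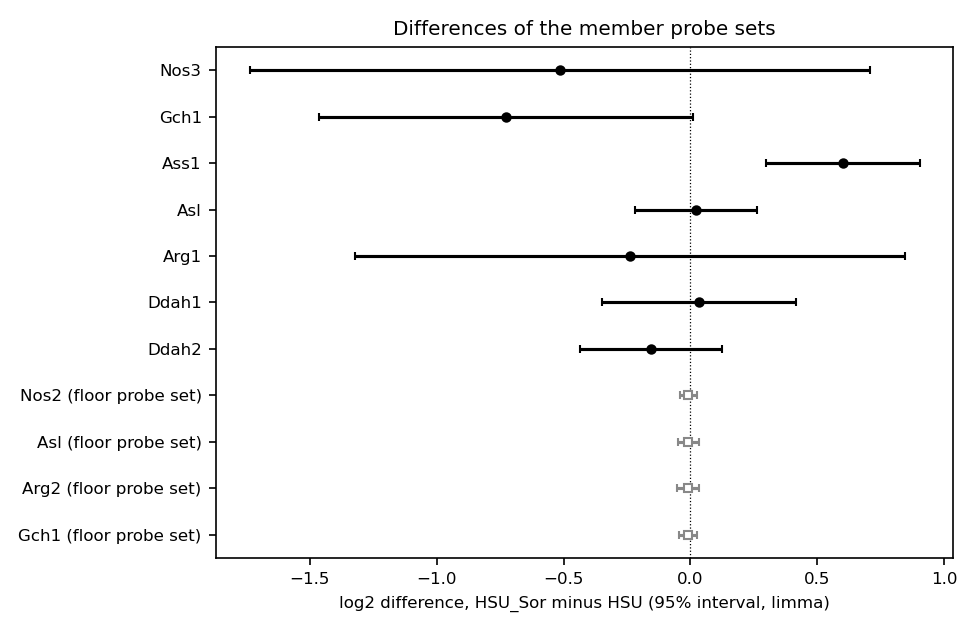
Log2 difference, HSU_Sor minus HSU, of all 11 member probe sets with its 95% interval from limma; open squares are the 4 probe sets at the floor, whose narrow intervals reflect the floor and not a measured level. The interval of Ass1 lies above 0, from 0.30 to 0.90, that of Gch1 ends at 0.01, and those of Nos3 and Arg1 are the widest.

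**Figure D3:**
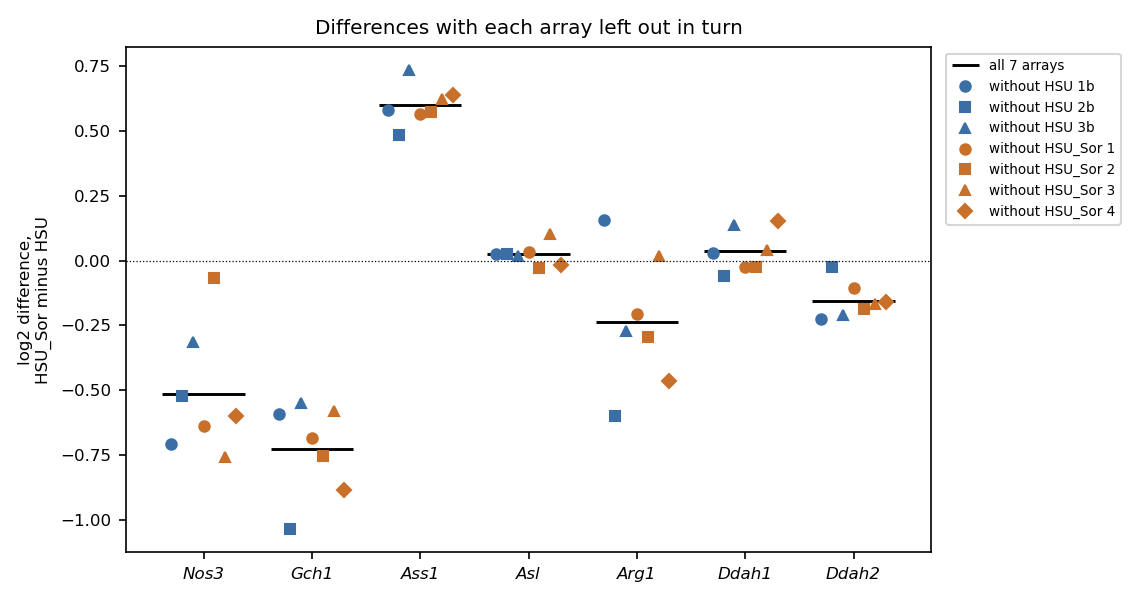
Log2 difference, HSU_Sor minus HSU, of the 7 member probe sets above the filter, over all 7 arrays (line) and with each array left out in turn (symbols, coloured by group). Ass1 stays between 0.48 and 0.74 and Gch1 between -1.04 and -0.55, whereas Nos3 moves to -0.07 without HSU_Sor replicate 2 and Asl, Arg1 and Ddah1 change sign.

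Over the 7 member probe sets above the filter, 3 differences were above 0 and 4 below it, with a median of -0.15. The median over all 15521 probe sets was -0.01, and 46% of them were above 0 and 54% below. These 7 are not all member probe sets, since the 4 at the floor did not pass the filter. In order of mean log2 level the probe sets ran from Nos2 to Ddah1, but levels of different probe sets cannot be set against each other.

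Genes that surround these enzymes were read in 6 lists, with 1 probe set for each gene, the one with the highest mean. Of their 51 genes, 42 had a probe set with a single symbol and 30 passed the filter. With limma, 0 of the 30 had an adjusted p below 0.05, as for 0% of the 9299 genes tested. At an unadjusted p below 0.05 there were 2 lower and 0 higher, against 4.18% lower and 2.69% higher over all genes. Of the 30 differences, 24 were below 0 and 6 above it, with a median of -0.10, where 46.5% of all genes were above 0 and 53.5% below, with a median of -0.01. With quantile normalization 23 of the 30 were below 0, against 47.0% of all genes, and with median centring also 23, against 46.1%.

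The list of the polyamine and proline branch, through which ornithine from arginase is used, held the 2 genes at an unadjusted p below 0.05. Of its 10 genes above the filter, 9 had a lower mean in HSU_Sor, with a median log2 difference of -0.18. The exception was Oat, which turns ornithine toward proline and glutamate (0.06 ± 0.13, SE), and which was below 0 as well without HSU_Sor replicate 4 or without HSU arrays 1b and 2b. Ornithine decarboxylase (Odc1), the first enzyme of polyamine synthesis, was at 12.01, 11.83 and 12.05 in HSU and at 11.53, 11.89, 11.75 and 11.51 in HSU_Sor. The groups overlapped at HSU 2b and HSU_Sor 2, and the log2 difference was -0.30 ± 0.12 (SE, limma adjusted p = 0.812). Spermidine synthase (Srm) differed by -0.28 ± 0.10 (SE, limma adjusted p = 0.812), from 5.26 to 5.44 in HSU and 4.94 to 5.26 in HSU_Sor. The decarboxylase inhibitor Oaz1 differed by -0.13 ± 0.07 and its counterpart Azin1 by -0.26 ± 0.13 (SE). The number of genes in this list at an unadjusted p below 0.05 was 0 without HSU_Sor replicate 1 and 3 without HSU_Sor replicate 2. It was 1 without any single HSU array or without HSU_Sor replicate 3. Of all 9299 genes, those lower at that p numbered 389 with all arrays, 262 without HSU_Sor replicate 1 and 360 without HSU_Sor replicate 2. They numbered 325, 462 and 225 without HSU replicates 1b, 2b and 3b, and 436 without HSU_Sor replicate 3. Prodh, Agmat and Azin2 did not pass the filter.

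In tetrahydrobiopterin synthesis and recycling, 3 of 6 genes had a probe set, all 3 passed the filter, and 0 passed the test. Qdpr, which recycles the cofactor, differed by -0.17 ± 0.15 (SE) and Pts, the enzyme after Gch1, by -0.03 ± 0.16 (SE). Gchfr, which encodes the feedback regulator of GTP cyclohydrolase, was listed between 5.86 and 5.91 on all 7 arrays, a range of 0.04, so its difference of -0.01 carries little information. A range under 0.1 was found for 6.67% of the tested probe sets. The Gch1 difference of -0.73 thus had no counterpart of like size in its list, but the difference between these genes was not tested.

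Among the synthase family and its regulators, 5 of 10 genes passed the filter and 0 passed the test, with differences from -0.13 to -0.03. The kinase gene Akt1, whose product activates the endothelial synthase, differed by -0.13 ± 0.08 (SE). Caveolin-1 (Cav1), which holds that synthase inactive in caveolae, differed by -0.08 ± 0.07, the chaperone Hsp90ab1 by -0.10 ± 0.10 and the synthase-binding protein gene Nosip by -0.04 ± 0.10 (SE). The brightest Cav1 probe set, the one given, lay between 13.95 and 14.25 on all 7 arrays. The other Cav1 probe sets differed by -0.16 ± 0.11 and, with levels from 12.00 to 13.47, by -0.20 ± 0.39 (SE). Further probe sets above the filter gave -0.29 ± 0.19 for Hsp90ab1 and -0.03 ± 0.16 for Akt1 (SE). Nos1 and Nos1ap did not pass the filter.

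Transporters of cationic amino acids passed the filter in 5 of 7 genes, and 0 passed the test. The mitochondrial ornithine carrier Slc25a15 differed by -0.14 ± 0.06 (SE, limma adjusted p = 0.836) and the transporter heavy chain Slc3a2 by -0.16 ± 0.08 (SE). Slc7a7, the light chain that exports arginine, differed by 0.22 ± 0.20 and Slc7a6 by 0.06 ± 0.11 (SE). Slc7a1, the main arginine importer of endothelial cells, was not among the 4 genes with the smallest p and was looked up for its role. Its brightest probe set was between 7.42 and 7.53 on all 7 arrays, and a dimmer one was at 6.86 to 6.95 in HSU and 6.68 to 6.82 in HSU_Sor (-0.12 ± 0.05, SE, limma adjusted p = 0.861). The inducible importer Slc7a2 did not pass the filter.

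Of 8 genes for arginine methylation and the removal of its products, 4 passed the filter and 0 passed the test. The methyltransferase genes Prmt5 (-0.10 ± 0.06, SE), Prmt2 (-0.17 ± 0.15) and Prmt3 (-0.10 ± 0.10) had lower means in HSU_Sor and Carm1 (0.11 ± 0.08) a higher one. Agxt2, which offers a second route of dimethylarginine removal, did not pass the filter. Of 6 genes of urea cycle entry and creatine synthesis, 3 passed the filter and 0 passed the test. Gatm, which uses arginine to begin creatine synthesis, differed by 0.07 ± 0.10 (SE), Gamt by 0.27 ± 0.18 and the creatine transporter Slc6a8 by -0.03 ± 0.12 (SE). Cps1, Otc and Nags, the urea cycle genes of liver mitochondria, were below the filter in these lungs.

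**Figure D4:**
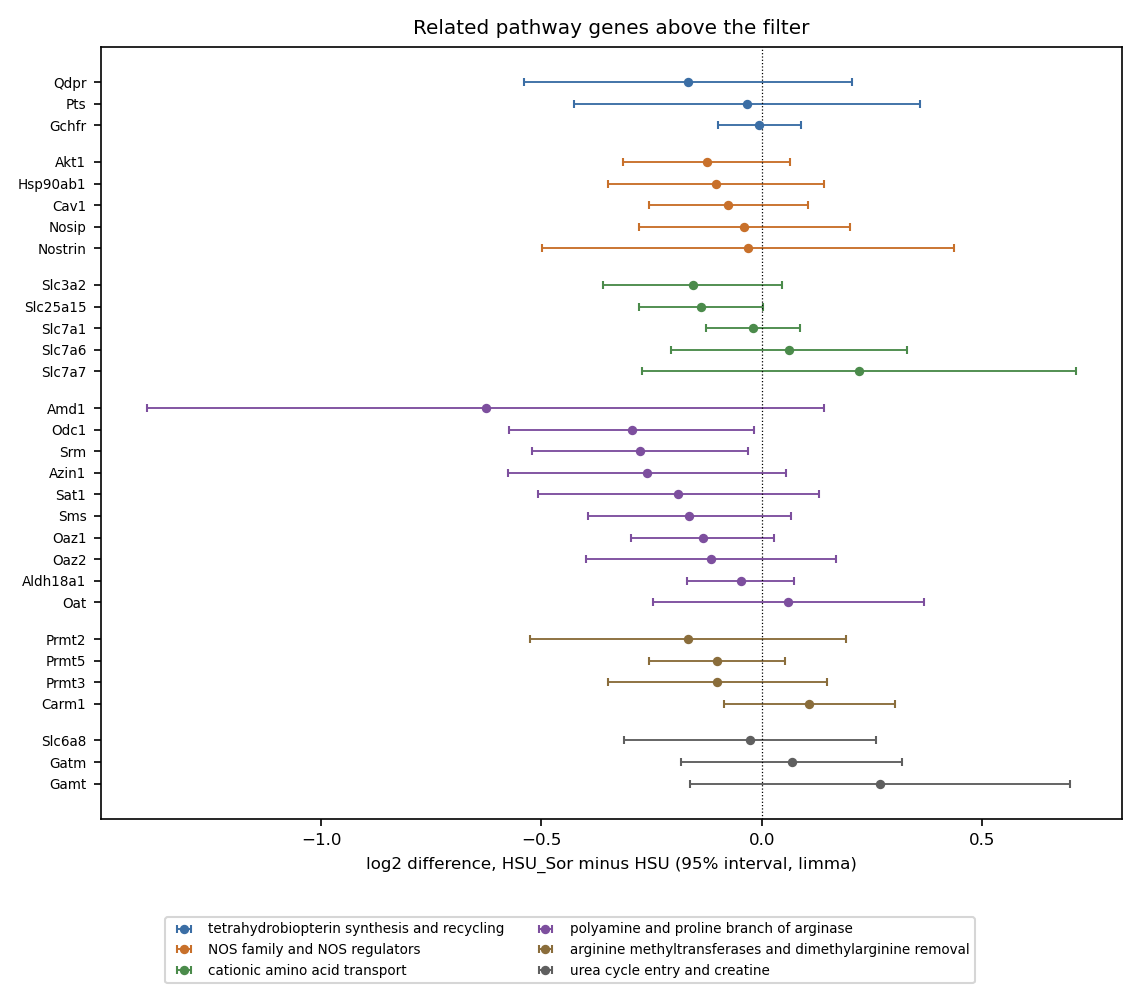
Log2 difference, HSU_Sor minus HSU, of the 30 related pathway genes above the filter with its 95% interval from limma, coloured by list and with 1 probe set for each gene. Of the 30 points 24 lie below 0, the intervals of Odc1 and Srm end below 0, and none of the 30 passed the adjusted threshold.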

How the data were processed

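Normalized log2 values, 1 for each probe set and array, are what the authors deposited. The submitters' processing notes list RMA and GCRMA; the sources here do not say which one produced the values. Values near the floor are compressed, so a small difference there carries no information. The 57 control probe sets were left out. Of the 31042 others, 20826 had 1 symbol in the platform annotation, 436 several and 9780 none, and 20758 matched the RefSeq gene table of GRCr8, which changed 0 symbols.

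HSU_Sor minus HSU was fitted with limma (version 3.58.1, R version 4.3.3), two-sided and without covariates, on the 15521 probe sets with a mean above the median (3.64), with Benjamini-Hochberg adjustment over all of them. Members below it were read from a fit on all 31042. SEs and 95% intervals are limma's. The model was tested on simulated data. The series description names SAM, which was not used.

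The members, lists and tests were chosen with earlier results of these data known. Named genes were all member probe sets, the 4 genes of each list with the smallest p and the 3 genes most correlated with Nos3, Ass1 and Arg1. In addition Oat and Slc7a1, some markers and the neighbours of Ddah2 were named after their values were seen.

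Alternatives were other filters, quantile normalization, median centring, array weights, limma's trended and robust variance prior, 1 probe set or the mean of probe sets per gene, a replicate block, and arrays left out singly, HSU 1b and 2b together, or HSU_Sor 3 and 4 together.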

Additional observations from a re-analysis of the deposited data

How the results depend on the processing

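The count of member probe sets past the adjusted threshold was 0 in all alternatives run, and so was that of the related list genes. Over all probe sets the count of 0 became 6 among those above the 75th percentile and 10 without HSU arrays 1b and 2b, which leaves 1 HSU array that is assumed to vary like HSU_Sor; with single arrays left out it lay between 0 and 6, the latter without HSU replicate 3b. The 1 member past both an unadjusted p of 0.01 and a 1.4-fold change (Ass1) became 0 with the replicate block, without HSU arrays 1b and 2b, and without HSU_Sor arrays 3 and 4, and lay between 0 and 1 with single arrays left out, 0 being without HSU replicate 1b. The sign of near-zero differences turned. Asl was at -0.015 with the replicate block and between -0.028 and 0.10 with single arrays left out. Ddah1 was at -0.17 without HSU arrays 1b and 2b and between -0.059 and 0.15 with single arrays left out. Arg1 lay between -0.60 and 0.16. At the floor, the second Asl probe set was at 0.0028 with quantile normalization and 0.0079 with median centring, Arg2 at 0.00032 and 0.0076, and Gch1 and Nos2 at 0.0071 and 0.0079 with median centring; with single arrays left out the second Asl probe set lay between -0.014 and 0.00044 and Arg2 between -0.017 and 0.0016. Ass1, Nos3, Ddah2 and the brighter Gch1 probe set kept their sign in every alternative in which they had a value. The mean of probe sets per gene put Asl and Gch1 below the filter. Replicate numbers do not pair the arrays by the labels, and deviations of same-numbered arrays correlated between -0.06 and 0.18. With the replicate block on arrays 1 to 3 the Ass1 difference was 0.64. No setting moved the median difference by more than 0.1.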
